A study of Arabidopsis thaliana with 6 samples.

Results

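The VQ family of Arabidopsis thaliana was followed through 10 of its genes in growing leaves, out of 29920 loci on the arrays. They are SIB1 (AT3G56710), SIB2 (AT2G41180), MKS1 (AT3G18690), IKU1 (AT2G35230), VQ4 (AT1G28280), VQ10 (AT1G78410), VQ12 (AT2G22880), JAV1 (also VQ22, AT3G22160), VQ29 (AT4G37710) and VQ33 (AT5G53830). Each of the 10 loci had 1 row in the deposited table, and all 10 were kept, since no filter on level was applied. The set was chosen by the log2 folds of SIB2 and MKS1, whose transcripts were called higher in ERF6:IOE than in GFP:IOE. The values of that pair are therefore given as a description, and nothing is supported with them. The remaining 8 were taken as relatives from the same family, with earlier results of these data known.

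RNA came from leaf 3 of Col-0 seedlings at an age given as 9 DAS. The 3 arrays of ERF6:IOE, a strong ERF6-overexpressing line, were compared with the 3 arrays of GFP:IOE, the control line. Seedlings of both lines had been kept on 5 µM dexamethasone for 4 h before harvest, so dexamethasone is shared by all 6 arrays, and what differs is the line. One strong line stood for the overexpression, leaves were pooled from several plates within an experiment, and the labels do not name the promoter of the introduced gene. Arrays from before induction were not analysed here, so a difference between the lines may predate it. Values are log2 expression as deposited, and differences are ERF6:IOE minus GFP:IOE on the log2 scale.

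VQ proteins are plant proteins, mostly small, named after a short conserved motif built around a valine and a glutamine. Many bind WRKY transcription factors through this motif and change how those factors act on their target genes, and several are substrates of MAP kinases. Members are known from defence against fungi and bacteria, from jasmonate responses, from light responses of the seedling stem and from seed growth. Sequences of the genes and proteins were not used here.

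ERF6 itself was at 9.99, 9.97 and 10.42 on the ERF6:IOE arrays, against 6.89, 7.38 and 7.55 on the GFP:IOE arrays, which goes with the labels. The 6 arrays had medians of 4.85 to 4.90 and lower quartiles of 4.03 to 4.08. Photosynthesis genes that mark green leaf tissue were bright in both lines: RBCS1A, LHCB2.1, PSBO1 and GAPA averaged 11.50 to 14.21 in ERF6:IOE and 11.36 to 14.21 in GFP:IOE, and 2 further markers had no row. The root marker PYK10 averaged 9.58 in ERF6:IOE and 9.46 in GFP:IOE, while the other 3 root and the 4 shoot meristem markers averaged 3.99 to 4.86 in ERF6:IOE and 3.87 to 4.78 in GFP:IOE. None of these markers passed the test between the lines. In bulk RNA, more cells that express a gene and more RNA per cell cannot be told apart.

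Part of the VQ transcripts were higher in ERF6:IOE, and none passed the test as lower. SIB2, MKS1, VQ10 and VQ12 passed the test upward, that is 4 of 10 members, and 0 of 10 passed downward. Over all rows, 0.698% passed upward and 0.0265% downward, at an adjusted p under 0.05 in a limma fit of the whole table with Benjamini-Hochberg adjustment. Since 2 of the 4 were the reason for the choice, the count is not read against that background. Of the 8 members that did not prompt the choice, 2 passed upward and 6 did not pass. In 5 of 10 members every ERF6:IOE array was above every GFP:IOE array, beside 6.93% of all rows. This count includes SIB2 and MKS1 and is not read against that share either. Without the pair it was 3 of 8 members, namely VQ10, VQ12 and SIB1. No member had all ERF6:IOE arrays below all GFP:IOE arrays, beside 6.52% of all rows. The members' median log2 fold was 0.48, or 0.18 without SIB2 and MKS1, beside -0.02 for all rows. The remaining 8 were also taken with earlier results of these data known. Their counts and median are therefore not read against the values of all rows either.

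**Figure D1:**
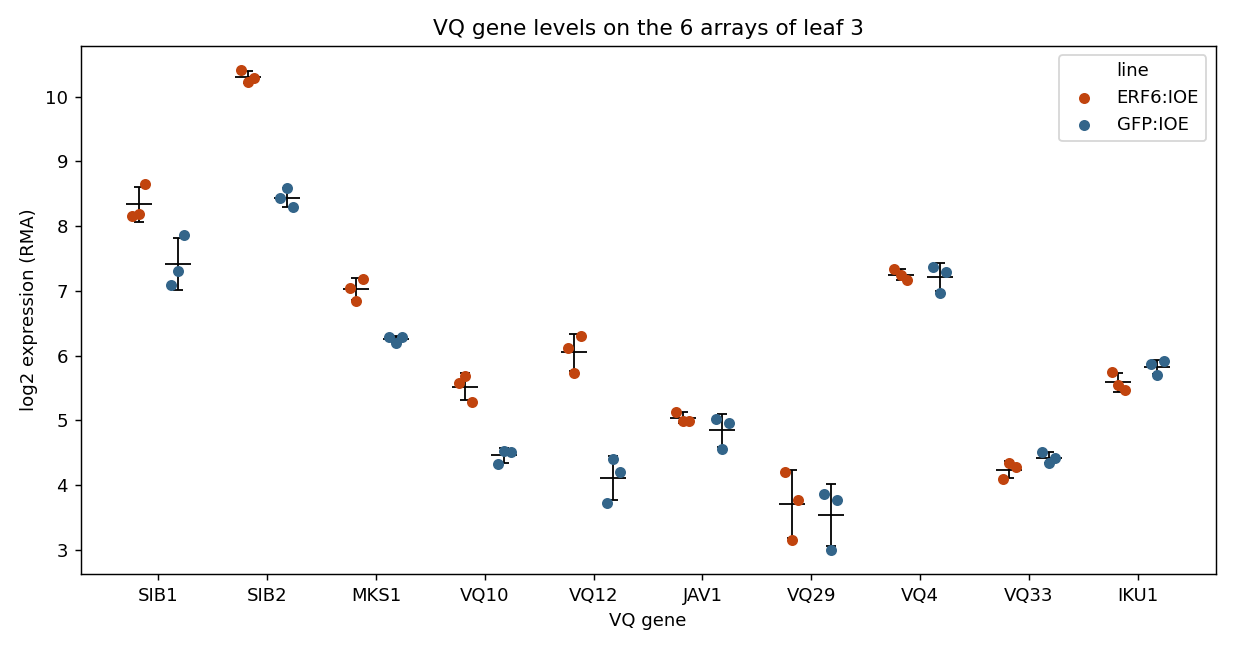
Log2 expression of the 10 VQ genes on each array of leaf 3, with ERF6:IOE left of GFP:IOE for each gene; points are arrays, horizontal bars are means and whiskers are SDs (n = 3 per line). SIB1, SIB2, MKS1, VQ10 and VQ12 show no overlap between the lines, and heights of different genes are not comparable because each has its own probes.

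SIB1 and SIB2 encode a pair of related proteins that bind plastid sigma factor as well as WRKY33, and MKS1 encodes a substrate of MAP kinase 4 that also binds WRKY33. SIB2 was at 10.41, 10.23 and 10.29 in ERF6:IOE, against 8.44, 8.58 and 8.30 in GFP:IOE. The arrays of each line lay close together and the lines were far apart, with 1.64 between the lowest ERF6:IOE and the highest GFP:IOE array. The means were 10.31 ± 0.09 in ERF6:IOE and 8.44 ± 0.14 in GFP:IOE (SD, n = 3 each), a log2 fold of 1.87 (SE 0.11) or 3.65-fold with a 95% interval of 3.04 to 4.38. That fold ranked 50 from the top among the 30237 rows.

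MKS1 was at 7.05, 6.85 and 7.18 in ERF6:IOE, against 6.28, 6.20 and 6.28 in GFP:IOE. Every ERF6:IOE array was higher, but the lines were only 0.56 apart at their nearest arrays. The means were 7.03 ± 0.17 in ERF6:IOE and 6.25 ± 0.05 in GFP:IOE (SD, n = 3 each), a log2 fold of 0.77 (SE 0.11) or 1.71-fold. The call of MKS1, a gene that prompted the choice, was lost in each of the 6 fits that left out 1 array. Its log2 folds there were 0.70 to 0.86. The limma adjusted p was 0.116, 0.0537 and 0.127 without ERF6:IOE replicate 1, 2 or 3, and 0.126, 0.16 and 0.127 without GFP:IOE replicate 1, 2 or 3. In such fits the rows called higher over the whole table fell from 211 to 87 to 126. Losses of other calls given below stand beside the same fall.

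SIB1 was at 8.16, 8.19 and 8.65 in ERF6:IOE, against 7.08, 7.31 and 7.86 in GFP:IOE. All ERF6:IOE arrays were higher, with 0.30 between the nearest arrays, and the GFP:IOE arrays were spread over 0.77. The means were 8.33 ± 0.27 in ERF6:IOE and 7.42 ± 0.40 in GFP:IOE (SD, n = 3 each). The log2 fold was 0.92 (SE 0.22, 95% interval 0.40 to 1.44), and the limma adjusted p over all rows was 0.213, so SIB1 did not pass. In order of limma adjusted p in the fit without a repeat block, MKS1 (0.0347) was the last member to pass. SIB1 (0.213) came next there, well above the threshold of 0.05. With a block on the repeat number the limma adjusted p was 0.051 for SIB1 (SE 0.10) and 0.0706 for MKS1, and neither passed. SIB1 had the larger log2 fold of these 2 genes and the larger SE. Probes shared between SIB1 and SIB2 cannot be told apart in the deposited values.

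VQ12 and VQ10 encode proteins known from the response to the fungus Botrytis cinerea: loss of VQ12 together with VQ29 raises resistance, whereas VQ10 acts with WRKY8 in favour of it. Neither gene prompted the choice of the set, though both were taken with earlier results of these data known. Both were higher in ERF6:IOE. VQ12 was at 6.12, 5.73 and 6.30 in ERF6:IOE, against 3.73, 4.40 and 4.20 in GFP:IOE. The nearest arrays of the lines were 1.33 apart, and GFP:IOE replicate 1 lay below the lower quartile of its array. The means were 6.05 ± 0.29 in ERF6:IOE and 4.11 ± 0.34 in GFP:IOE (SD, n = 3 each).

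The log2 fold of VQ12 was 1.94 (SE 0.21, limma adjusted p 0.00976), or 3.84-fold with a 95% interval of 2.73 to 5.40, the highest of the 10 members. It ranked 44 from the top among all rows, beside 50 for SIB2. RMA compresses values near the floor, so the size of the rise of VQ12 is approximate. Without ERF6:IOE replicate 1 the log2 fold was 1.91 and the limma adjusted p 0.051, so the call was lost there, and it held in the other 5 fits that left out 1 array. It was also lost when repeat 1 or repeat 3 was left out of each line (limma adjusted p 0.127 and 0.126), and it held in 12 of 16 alternatives in all.

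VQ10 was at 5.58, 5.69 and 5.29 in ERF6:IOE, against 4.33, 4.53 and 4.51 in GFP:IOE. All GFP:IOE arrays lay below the median of their array and none of the ERF6:IOE arrays did, with 0.76 between the nearest arrays of the lines. The means were 5.52 ± 0.21 in ERF6:IOE and 4.46 ± 0.11 in GFP:IOE (SD, n = 3 each). The log2 fold was 1.06 (SE 0.13, limma adjusted p 0.0176), or 2.09-fold with a 95% interval of 1.69 to 2.59. The call held without ERF6:IOE replicate 3 and was lost without any 1 of the other 5 arrays. The limma adjusted p was then 0.0744 and 0.0766 without ERF6:IOE replicate 1 or 2, and 0.0798, 0.0735 and 0.068 without GFP:IOE replicate 1, 2 or 3. VQ10 passed in 0 of 3 fits that left out a repeat of each line, and in 7 of 16 alternatives in all.

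**Figure D2:**
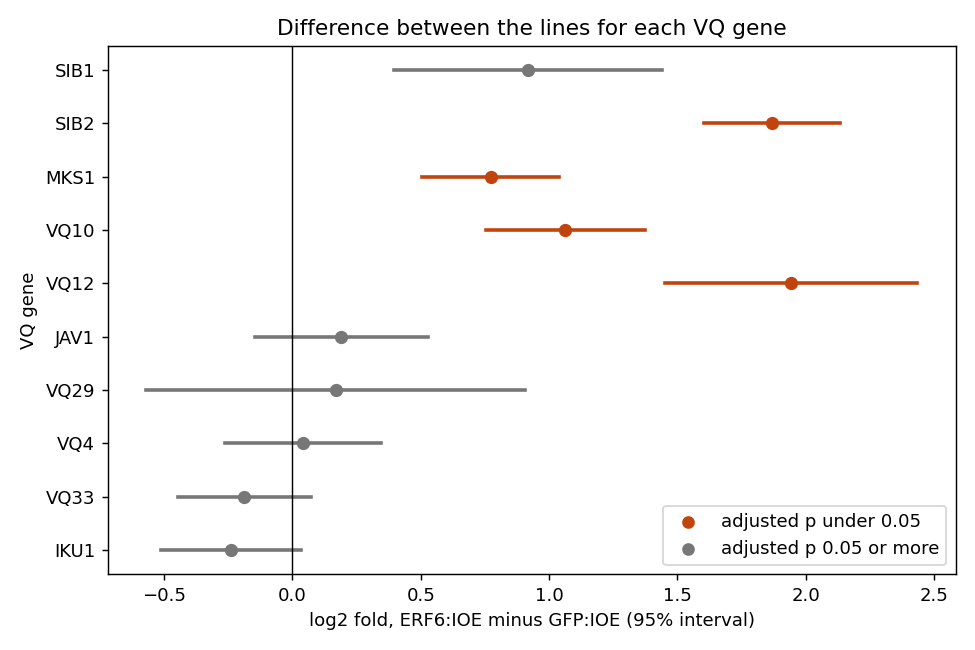
Log2 fold of each VQ gene (ERF6:IOE minus GFP:IOE, point) with its 95% interval from the limma fit over all rows (bar), coloured by whether the adjusted p was under 0.05. The intervals of SIB1, SIB2, MKS1, VQ10 and VQ12 lie above 0, from 0.40 at the lowest for SIB1, and those of the other 5 genes span 0.

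JAV1 encodes a repressor of jasmonate responses that is degraded when jasmonate rises, and VQ29 encodes a repressor of light responses in the seedling stem that binds PIF1. JAV1 was at 5.13, 4.99 and 4.99 in ERF6:IOE, against 5.03, 4.55 and 4.96 in GFP:IOE. The lines overlapped, and GFP:IOE replicate 2 was the one low array. The log2 fold was 0.19 (95% interval -0.15 to 0.53), so a rise of up to 1.44-fold is within the interval.

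VQ29 was at 4.21, 3.15 and 3.77 in ERF6:IOE, against 3.86, 2.99 and 3.77 in GFP:IOE. Replicate 2 was the lowest array in both lines. Of the 6 arrays, 5 gave VQ29 a value below the lower quartile of the array, and whether the transcript was detected was not assessed. The log2 fold of 0.17 had the widest interval of the 10 members, -0.57 to 0.91, in the fit without a repeat block. In that fit a difference of the size seen for MKS1 could not be told from none. With a block on the repeat number the SE was 0.109, beside 0.315 without it, at the same log2 fold, and VQ29 did not pass there either. VQ12 and VQ29, which are linked in the response to Botrytis, thus had log2 folds of 1.94 and 0.17, and the difference between them was not tested.

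VQ4 and VQ33 are listed in the name table as targets of MPK3 and MPK6 (MVQ1 and MVQ3). VQ4 was at 7.33, 7.25 and 7.17 in ERF6:IOE, against 7.36, 6.96 and 7.30 in GFP:IOE. It was above the upper quartile on all 6 arrays, the lines overlapped, and the log2 fold was 0.04 (95% interval -0.26 to 0.35). VQ33 was at 4.08, 4.34 and 4.28 in ERF6:IOE, against 4.51, 4.33 and 4.42 in GFP:IOE. It was below the median on all 6 arrays. The lines overlapped through replicate 2, and the log2 fold was -0.19 (95% interval -0.45 to 0.07).

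IKU1 encodes a VQ protein of the HAIKU pathway, which sets seed size through the endosperm and in which it binds the WRKY factor MINI3. It was at 5.75, 5.54 and 5.47 in ERF6:IOE, against 5.87, 5.70 and 5.91 in GFP:IOE. ERF6:IOE replicate 1 lay within the range of GFP:IOE and the other ERF6:IOE arrays lay below it. The log2 fold was -0.24 (95% interval -0.51 to 0.03), the lowest of the 10 members. The limma adjusted p-values of IKU1, VQ33, JAV1, VQ29 and VQ4 ran from 0.688 to 0.969.

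The members differed in how closely their arrays agreed within a line. Over all rows the median SD within a line was 0.15 in ERF6:IOE and 0.14 in GFP:IOE. VQ29 had the largest SDs, 0.53 in ERF6:IOE and 0.48 in GFP:IOE, above 97.0% and 96.2% of all rows. VQ12 was also spread widely, with SDs above 83.0% of rows in ERF6:IOE and 90.0% in GFP:IOE. For SIB1 these shares were 80.8% in ERF6:IOE and 93.3% in GFP:IOE. SIB2 was at 27.0% in ERF6:IOE and 49.1% in GFP:IOE, and MKS1 was at 56.3% in ERF6:IOE and 9.66% in GFP:IOE.

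**Figure D3:**
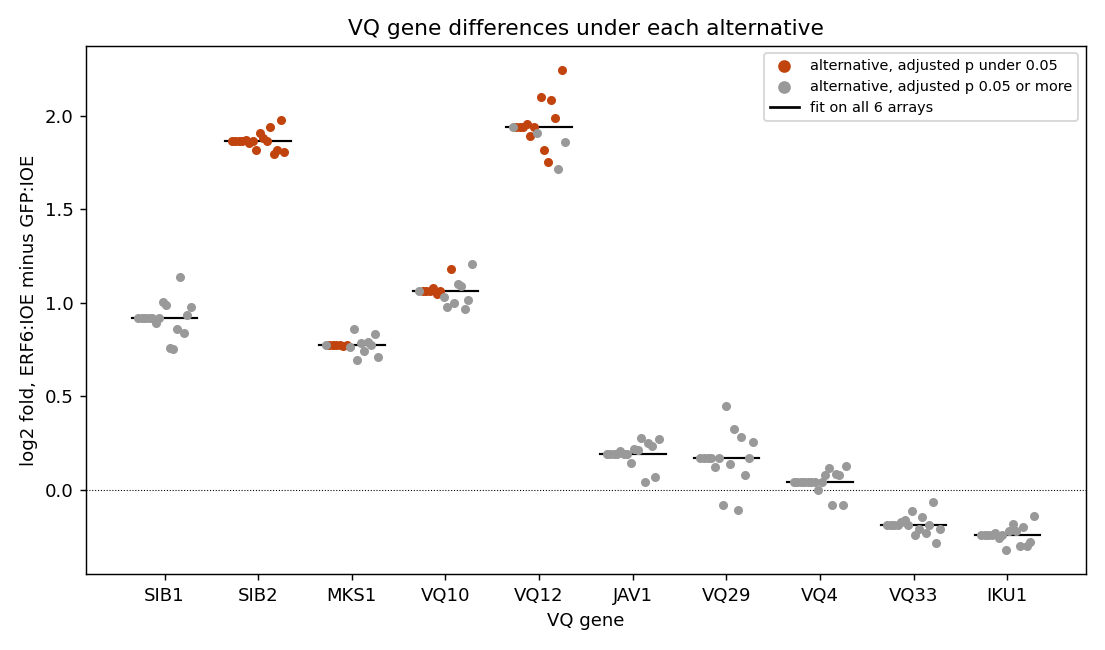
Log2 fold of each VQ gene (ERF6:IOE minus GFP:IOE) in the fit on all 6 arrays (black line) and in 16 alternatives (points; 15 for VQ29), coloured by whether the adjusted p was under 0.05. SIB2 passed in all 16 and VQ12 in 12, VQ10 passed in 7 and MKS1 in 6. SIB1 passed in none although its log2 fold stayed between 0.75 and 1.14, and only VQ4 and VQ29 crossed 0. SIB2 and MKS1 prompted the choice of the set, so their counts are a description.

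Among the 24 other VQ genes of Arabidopsis, 1 passed the test upward, none downward and 23 did not pass. Over all rows, 0.698% passed upward and 0.0265% downward. The median log2 fold of the 24 was 0.03, beside -0.02 for all rows. The name table calls 3 of the 24 VQ genes, so the other 21 were placed in the family by locus code from general knowledge. The 1 gene that rose was AT1G17147, at 6.08, 6.22 and 6.09 in ERF6:IOE against 4.08, 4.77 and 5.01 in GFP:IOE. The ERF6:IOE arrays were close together and GFP:IOE replicate 1 was the lowest of the GFP:IOE arrays. AT1G17147 had a log2 fold of 1.51 (SE 0.23), with 0.037 as its adjusted p in limma. It still passed without GFP:IOE replicate 1 or 3. The call was lost without ERF6:IOE replicate 1, 2 or 3 (limma adjusted p 0.118, 0.152 and 0.131) and without GFP:IOE replicate 2 (0.12).

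The VQ genes with the next largest moderated t were AT1G21320 (log2 fold 0.40, SE 0.14), AT4G39720 (-0.32, SE 0.13) and AT1G80450 (-0.25, SE 0.13), and none of them passed. The 4 genes that the name table lists as MPK3 and MPK6 targets of the VQ family were looked at together after their values were seen. VQ4 (0.04), MVQ2 (0.08), VQ33 (-0.19) and MVQ4 (0.00) are given with their log2 folds, and none of them passed.

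Of 8 WRKY factors known to bind a VQ protein, 1 passed upward, none downward and 7 did not pass. The shares of all rows were 0.698% upward and 0.0265% downward. The median log2 fold of the 8 was 0.18. WRKY28, a partner of JAV1, was at 5.01, 4.97 and 4.70 in ERF6:IOE, against 3.83, 3.56 and 3.82 in GFP:IOE. All GFP:IOE arrays were below the lower quartile, so the size of its rise, 1.15 on the log2 scale (SE 0.13), is approximate. The limma fit gave it an adjusted p of 0.0114. The call was lost without ERF6:IOE replicate 1 or 2 and without GFP:IOE replicate 2 (limma adjusted p 0.0517, 0.062 and 0.0536).

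WRKY33, the partner of SIB1, SIB2 and MKS1 that controls camalexin synthesis, was at 7.04, 6.98 and 7.37 in ERF6:IOE, against 5.89, 6.33 and 6.61 in GFP:IOE. The lines did not overlap, and WRKY33 did not pass (log2 fold 0.86, SE 0.20, limma adjusted p 0.19). WRKY57 (0.32, SE 0.13) and WRKY75 (0.25, SE 0.11), which bind SIB proteins as well, did not pass either. The other binding partners had log2 folds from -0.08 for MINI3 to 0.12 for WRKY51, with WRKY8 at -0.00 and WRKY25 at 0.08. All of these other partners lay below the median on all 6 arrays, and WRKY51 below the lower quartile on 5. Whether their transcripts were detected was not assessed.

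None of the 22 other WRKY factors listed here from groups I and IIc, the classes that bind VQ proteins, passed in limma. The shares of all rows that passed were 0.698% upward and 0.0265% downward. Of the 22, 1 had an unadjusted p under 0.05, beside 2426 of all 30237 rows. The median log2 fold of the 22 was 0.06. That 1 gene was WRKY50, at 4.71, 4.80 and 5.03 in ERF6:IOE against 5.33, 5.38 and 5.11 in GFP:IOE, a difference of -0.42 on the log2 scale (SE 0.13) with 0.356 as the adjusted p in limma. The next in moderated t were WRKY12 (-0.22), WRKY13 (0.20) and WRKY56 (0.20), with WRKY56 below the lower quartile on 5 of 6 arrays.

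None of the 14 kinases, other partners and known targets of VQ proteins passed in limma, beside the same shares of all rows, 0.698% upward and 0.0265% downward. Of the 14, 1, MPK3, had an unadjusted p under 0.05, beside 2426 of all 30237 rows. The median log2 fold of the 14 was 0.00. MPK3, a MAP kinase that phosphorylates VQ proteins, was at 8.07, 8.40 and 8.51 in ERF6:IOE, against 7.46, 8.09 and 7.95 in GFP:IOE. The lines overlapped slightly, and the log2 fold was 0.50 (SE 0.19). SHB1, which promotes the HAIKU pathway (0.15), PIF1, a light-signalling factor and partner of VQ29 (-0.15), and AT5G10650 (0.11) came next in moderated t. On 5 of 6 arrays SHB1 was below the lower quartile. The camalexin synthesis genes PAD3 (0.08) and CYP71A13 (-0.08), targets of WRKY33, were also close to 0. Both lay below the median on all 6 arrays, and whether their transcripts were detected was not assessed. The MAP kinase genes MPK4 (0.08) and MPK6 (0.04), above the upper quartile on all 6 arrays, were close to 0 as well. PAD3, CYP71A13, MPK4 and MPK6 are named after their values were seen.

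**Figure D4:**
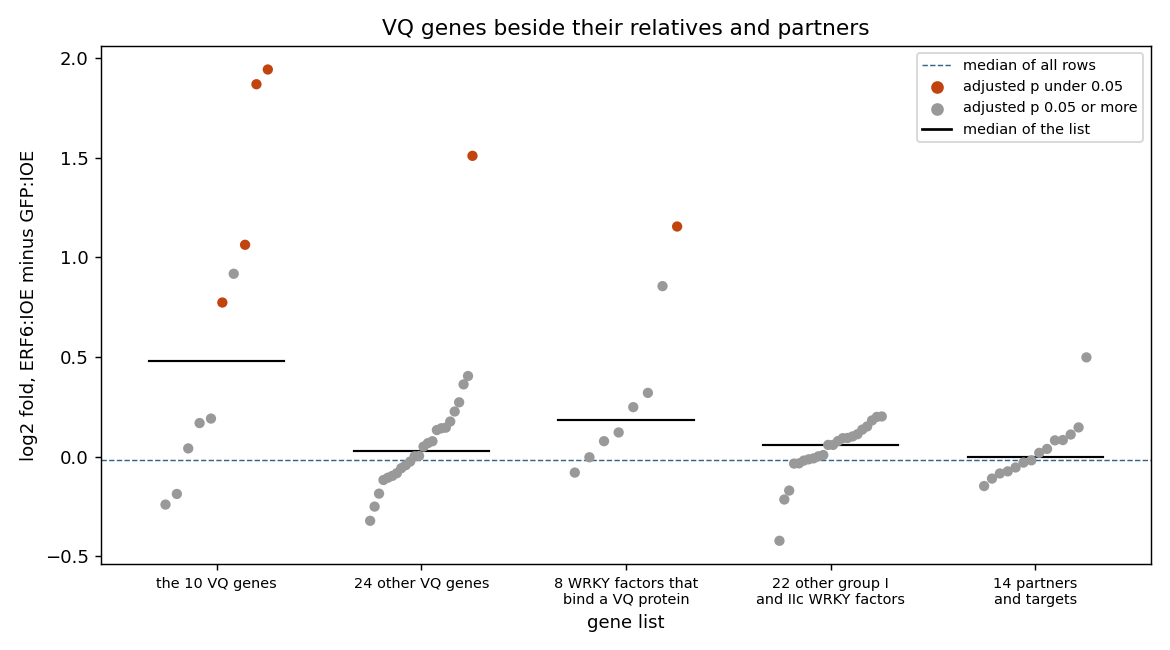
Log2 folds (ERF6:IOE minus GFP:IOE) of the 10 VQ genes, 24 other VQ genes, 8 WRKY factors that bind a VQ protein, 22 other group I and IIc WRKY factors and 14 partners and targets; points are genes sorted within a list, black lines are list medians and the dashed line is the median of all rows. Genes past the test were 4, 1, 1, 0 and 0, all upward, beside 0.698% of all rows upward. The 10 VQ genes were chosen partly for their rise, so their count is not read against that share.

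The rows most like SIB2 over the 6 arrays, by Pearson r, were RSR4, a gene of vitamin B6 synthesis (0.999), the uclacyanin gene UCC2 (0.998) and AT5G14120 (0.998). Their log2 folds were 1.28, 1.25 and 0.95, and all of them passed upward. The rows most like MKS1 were AT5G02970 (0.995), the auxin efflux gene PIN3 (0.995) and AT1G50020 (0.994), with log2 folds of 0.44, 0.46 and 0.26. None of the rows most like MKS1 passed (limma adjusted p 0.197, 0.128 and 0.478). The r values of both genes span both lines, so they largely reflect the difference between the lines.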

How the data were processed

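The deposited values are log2 expression of 30237 rows on 6 arrays, made by the authors with RMA, with limma also named and TAIR9 as the build, per the submitters' processing notes. The versions and settings of RMA are not stated in the labels. RMA removes overall shifts between arrays. Sequencing depth has no counterpart, and 3 arrays per line limit the precision.

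The lines were compared with limma 3.58.1 in R 4.3.3 (lmFit and eBayes, two-sided, no filter) with Benjamini-Hochberg adjustment over all rows and a threshold of 0.05. SE is moderated. P-values set the difference between the lines against the moderated spread between arrays, which the labels call biological repeats. Spread between independent lines of the same kind does not enter them. Arrays correlated with r from 0.984 to 0.987 within a line and from 0.977 to 0.983 between lines, and none were identical. The procedure was tested on simulated data with independent noise on each array. That setting does not cover an effect shared by arrays of equal repeat number.

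Members and lists were chosen with earlier results of these data known. From each list, genes past the threshold and up to 4 with the largest absolute moderated t were named. Where a listed locus had several rows, the brighter one was used. Symbols come from a TAIR10.1 name table, with 29715 rows matched. No coordinates are given, because the builds differ. The 16 alternatives were a repeat block, a level filter, a variance trend, median centring, cyclic loess, array weights, averaged rows, and leaving out each array or repeat.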

Additional observations from a re-analysis of the deposited data

How the results depend on the processing

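SIB2 passed in 16 of 16 alternatives (log2 fold 1.80 to 1.98), VQ12 in 12, VQ10 in 7 and MKS1 in 6. The other 6 members passed in none. SIB2 and MKS1 had prompted the choice of the set, so their counts are a description. VQ members past the threshold numbered 1 to 3 with 1 array left out and 1 or 2 with the arrays of 1 repeat number left out. AT1G17147 passed in 8 of 16 alternatives and WRKY28 in 9, so both lists had counts of 0 to 1 with arrays left out. Over all rows, 211 were higher and 8 lower. With 1 array left out 87 to 126 were higher and 1 to 6 lower, and without 1 repeat number, which leaves fewer samples, the counts were 45 to 53 higher and 1 to 2 lower. The level filter, which tests fewer rows and leaves out VQ29, gave 14 lower.

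Whether equal repeat numbers mean a common experiment is not stated in the labels. Arrays of equal number had correlations of deviations of 0.19, 0.078 and 0.21, and each of the 6 arrays correlated best with its own number, a hint from the data only. A replicate block on that number gave 143 higher and 5 lower calls over all rows. VQ members past the threshold were then 1 (SIB2), other VQ genes 0 and WRKY partners 0. The limma adjusted p was 0.0503 for VQ12, 0.0596 for VQ10, 0.0706 for MKS1, 0.0678 for AT1G17147 and 0.051 for WRKY28 and for SIB1, whose SE was 0.10 with the block and 0.22 without it. VQ4 and VQ29, neither of which passed, were the members that changed sign. With arrays left out VQ4 ran from -0.081 to 0.13, below 0 without ERF6:IOE replicate 1 (-0.00036), GFP:IOE replicate 2 (-0.081) or repeat 2 (-0.08). VQ29 ran from -0.11 to 0.45, below 0 without ERF6:IOE replicate 1 (-0.081) or GFP:IOE replicate 2 (-0.11). The cause of these changes was not tested.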
